A study of Homo sapiens with 9 samples.

Results

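The Eph receptors and their ligands, the ephrins, were followed in LNCaP cells, a human prostate cancer line derived from a metastasis, after recombinant NRG1 was added. NRG1 (neuregulin 1) is a secreted ligand of the receptor HER3. The 9 genes were taken by name from the deposited table of 37351 genes: the receptors EPHA2, EPHA4, EPHA7, EPHB3 and EPHB4, and the ligands EFNA1, EFNA4, EFNB1 and EFNB2. RNA was measured by mRNA sequencing with read pairs, in 3 groups of 3 libraries. All wells were starved for 6 to 12 h in medium free of serum and calcium. The 0 h group was harvested at the start of treatment, and the 12 h and 24 h groups had received 15 ng/mL NRG1 for 12 h and 24 h. No untreated cells at 12 or 24 h were analysed here, so the effect of NRG1 and that of time in this medium cannot be told apart. All libraries came from 1 cell line, and because RNA was measured in bulk, fewer cells making a transcript and less of it per cell cannot be told apart.

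Libraries held 47016302 to 60985825 counts, and the 0 h libraries were the deepest. Of the markers of prostate luminal cells, KLK3 was expressed at 972.2 to 1343 CPM, KLK2 at 197.2 to 267 CPM and KRT18 at 330.4 to 421 CPM (CPM: reads of a gene in 1000000 reads of the library, with library sizes scaled by edgeR's TMM factors). At 24 h against 0 h the luminal markers moved in both directions. KLK3 (log2 fold change 0.25, edgeR adjusted p = 3.23e-07) and KRT8 (0.16, 0.000961) were higher. TMPRSS2 (-0.57, 8.84e-13), KLK2 (-0.22, 1.42e-05), HOXB13 (-0.17, 5.7e-05) and FOLH1 (-0.16, 4.82e-05) were lower. KRT18 (0.095, 0.448) did not reach an adjusted p of 0.05. Summed levels were 0.0213 to 0.325 CPM for 3 basal markers and 0.096 to 0.435 CPM for 3 leukocyte markers. Of the 4 fibroblast markers, COL1A1 gave almost all of the 22.8 to 27.6 CPM, with DCN and COL1A2 near 0. COL1A1 was not called at 24 h (-0.11, edgeR adjusted p = 0.192). LUM, at a low level, rose from a mean of 1.03 CPM at 0 h to 1.52 CPM at 24 h (0.56, edgeR adjusted p = 0.0479). The endothelial sum fell from 12.7 to 13.7 CPM at 0 h to 6.90 to 7.94 CPM at 24 h. It came almost wholly from VWF (log2 fold change -0.83 ± 0.080 SE at 24 h, adjusted p = 3.07e-10 by edgeR), while PECAM1 was near 0. Whether these marker changes play a part in the results below was not tested.

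Eph receptors are the largest family of receptor tyrosine kinases. They bind ephrins that are themselves held in the membrane of a neighbouring cell, so signalling needs contact. EphA receptors mainly bind ephrin-A ligands, which are anchored by a lipid, and EphB receptors mainly bind ephrin-B ligands, which cross the membrane and have a cytoplasmic tail. Signals run both ways, forward through the receptor kinase and in reverse through the ephrin, and act on adhesion, repulsion and cell migration, in epithelia as well as in nerve and vessel growth.

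The 250 bases upstream of the gene start are shown for the receptor that rose most and the called ligand that fell most among the 9 genes, EPHA2 at chr1:16156070-16156319 (minus strand) and EFNA4 at chr1:155063490-155063739 (plus strand), as RefSeq gives them for GRCh38.p14. Each is written 5′ to 3′ along the gene. Capitals mark the matches to the motifs searched, and EFNA4 has none.
EPHA2: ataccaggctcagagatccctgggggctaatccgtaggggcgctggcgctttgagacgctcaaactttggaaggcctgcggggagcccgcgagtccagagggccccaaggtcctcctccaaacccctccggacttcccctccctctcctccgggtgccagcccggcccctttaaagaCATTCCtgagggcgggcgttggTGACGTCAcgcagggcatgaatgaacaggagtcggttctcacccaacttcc
EFNA4: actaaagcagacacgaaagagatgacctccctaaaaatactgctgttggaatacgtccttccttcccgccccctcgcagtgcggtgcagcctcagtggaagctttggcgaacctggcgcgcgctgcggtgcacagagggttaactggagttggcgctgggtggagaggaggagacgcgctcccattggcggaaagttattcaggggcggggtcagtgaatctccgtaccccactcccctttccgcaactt
The match TGACGTCA, the cyclic AMP response element (CRE), lay 51 to 44 bases before the EPHA2 start, and CATTCC, the reverse strand of the TEAD motif GGAATG, lay 73 to 68 bases before it. Among 35116 RefSeq promoter windows of 300 bases, 1.85% held a CRE and 14% a TEAD match on either strand. All 9 genes had at least 1 window, 12 in total, and EPHA2 alone among them held any of the 6 motifs searched. The other 4 motifs were AP-1 (TGANTCA, in 7.71% of all windows), EGR (GCGTGGGCG, 0.795%), the E-box (CACGTG, 7.26%) and ETS (CCGGAAG, 10.3%). A match is a run of letters and not a measured site, and these data do not hold factor binding.

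Of the 9 genes, 8 passed the filter on low counts and were tested, and EPHA4 did not. Over 12 h of NRG1, EPHA2 and EFNA1 rose and EPHA7 and EFNA4 fell. Over 24 h EPHB3 rose as well, while EPHB4, EFNB1 and EFNB2 did not pass at either time. A gene was called with an adjusted p of at most 0.05 by the quasi-likelihood test of edgeR, adjusted over all 19250 genes tested, and a fold change of at least 1.5 was counted separately. At 12 h, 2 of the 8 genes were higher and 2 lower, beside 18.7% of all tested genes called (10.6% higher and 8.16% lower). At 24 h, 3 were higher and 2 lower, beside 21.1% of all tested genes (11.6% higher and 9.48% lower). Tested for a change at any time by an F test over 0, 12 and 24 h, 5 of the 8 were called, beside 25.1% of all tested genes. Only EPHA2 at 24 h also reached 1.5-fold, where 3.31% of all tested genes did. At 12 h none did (2.37% of all tested genes), although 5 of the 8 had an unadjusted p below 0.05, and DESeq2 called none past both thresholds either. The share of all tested genes at that unadjusted p was not counted, here or for the unadjusted counts below. The median log2 fold change of the 8 genes was 0.0061 at 12 h and 0.049 at 24 h, and that of all tested genes was -0.0084 and -0.0068. Leaving out 1 library lowered the 12 h count from 4 to 2 (0 h replicate 1 or 3) or to 1 (12 h replicate 1 or 3), and the 24 h count from 5 to 3 (0 h replicate 1 or 3) or to 2 (24 h replicate 2). The count at any time fell to 3 without 0 h replicate 1 or 3, 12 h replicate 1 or 24 h replicate 2.

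**Figure D1:**
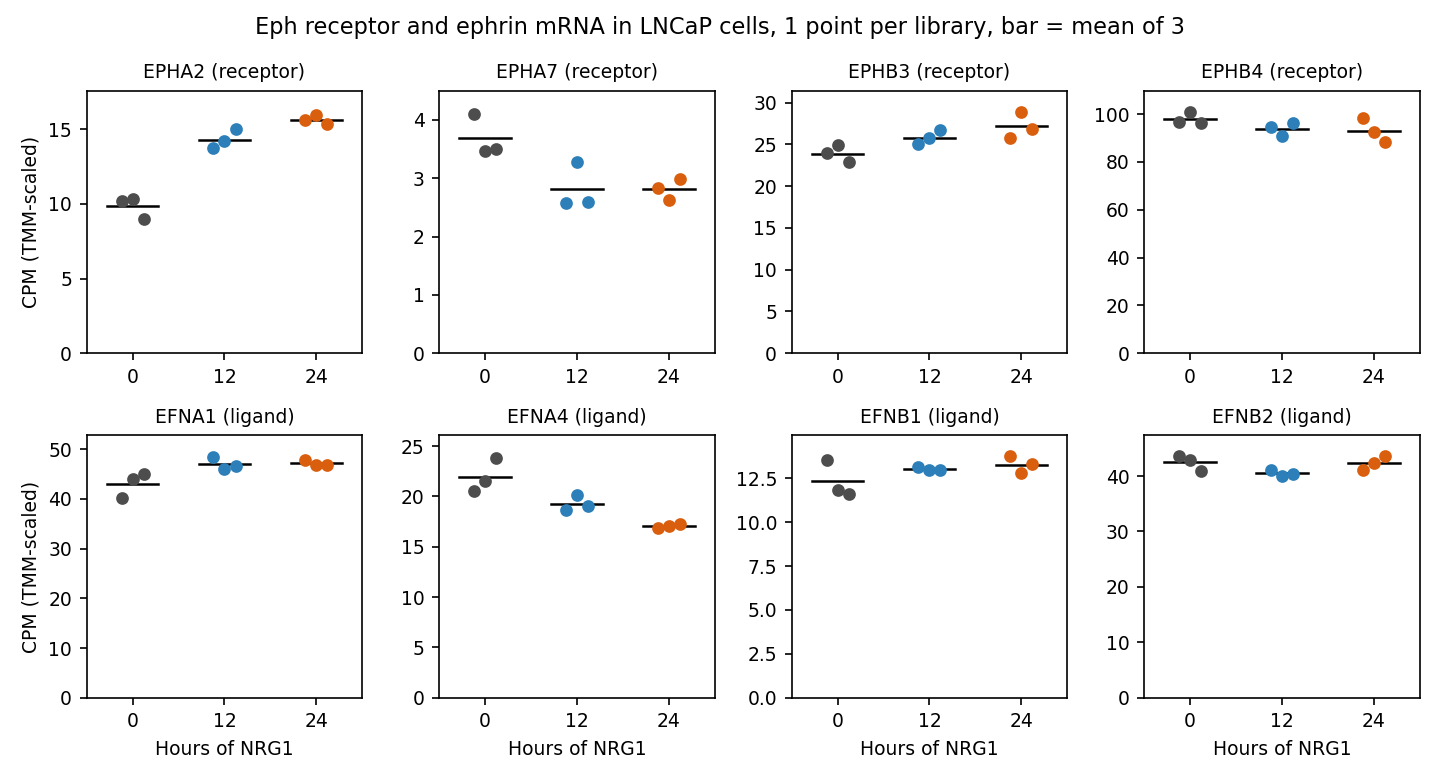
Level of the 8 tested Eph receptors and ephrins (y axis, CPM on TMM-scaled library sizes, from 0) against hours of NRG1 (x axis), with 1 point for each of the 3 libraries per time and a bar at their mean. EPHA2 moved from a mean of 9.85 CPM at 0 h to 15.7 CPM at 24 h and EFNA4 from 22 to 17.1 CPM, while the points of EFNB2 overlap at all times.

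EPHA2 is an A-class receptor best known as the partner of ephrin-A1 on epithelial cells, and it is often abundant in carcinomas. It lies at chr1:16124337-16156069 on the minus strand (GENCODE v44, GRCh38, like all gene positions here). Its libraries held 10.2, 10.4 and 8.97 CPM at 0 h, 13.7, 14.2 and 15 CPM at 12 h, and 15.6, 15.9 and 15.4 CPM at 24 h. Every treated library was above every 0 h library, and the 24 h libraries lay above the 12 h ones. The log2 fold change was 0.54 ± 0.071 (SE; n = 3 libraries per group here and below) at 12 h, with an edgeR adjusted p of 4.62e-07. At 24 h it was 0.67 ± 0.071, or 1.59-fold, with an edgeR adjusted p of 3.16e-09. The step from 12 h to 24 h was 0.13 (95% interval -0.012 to 0.27) and did not pass (edgeR adjusted p = 0.321). Both calls against 0 h held under all 18 alternatives, which gave 0.48 to 0.58 on the log2 scale for 12 h and 0.61 to 0.71 for 24 h.

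The 5 genes whose log2 CPM followed that of EPHA2 most closely over the 9 libraries, out of 11399 genes of sufficient level, were TPD52 (Pearson r = 0.991), CCND1 (0.989), SPRED1 (0.987), TXLNG (0.985) and DEAF1 (0.984). CCND1 encodes cyclin D1, and SPRED1 an inhibitor of the Ras and ERK pathway. The 9 points share 3 times of 3 libraries each, so these values describe the step between times and carry no p. SPRED1 moved furthest of the 5, from a mean of 8.15 CPM to 16.3 and then 18.7 CPM, a log2 difference of 1.2 by the last time. CCND1 went from 310.9 CPM before NRG1 to 388.2 CPM at the end, a log2 difference of 0.32. Within the family, r with EPHA2 was 0.869 for EPHB3 and 0.876 for EPHA1, and -0.914 for EFNA4 and -0.982 for EPHA3.

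EPHA7, an A-class receptor studied mostly in the developing brain, was expressed at a low level and fell. It lies at chr6:93240020-93419687 on the minus strand. It held 4.09, 3.47 and 3.51 CPM at 0 h, 2.57, 3.27 and 2.6 CPM at 12 h, and 2.83, 2.63 and 2.99 CPM at 24 h. Treated libraries were all below those at 0 h, with 1 of the 12 h libraries close to them. The log2 fold change was -0.39 ± 0.137 (SE) at both times, with edgeR adjusted p-values of 0.0415 and 0.038. These calls were lost by DESeq2, which gave -0.39 at both times (adjusted p = 0.055 and 0.0509), with all genes of at least 1 count (edgeR adjusted p = 0.0604 and 0.0517), at 12 h with GC content and length offsets (0.0528), and without single libraries. Without 0 h replicate 1 the values were -0.30 at both times (edgeR adjusted p = 0.201 and 0.179), and without 0 h replicate 3 they were -0.42 (0.0575 and 0.0562). The 12 h call was also lost without 12 h replicate 1 (-0.32) or 3 (-0.33), and the 24 h call without 24 h replicate 1 (-0.39) or 2 (-0.34).

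EPHA4, an A-class receptor that binds ephrins of both classes, was close to absent. Its 9 libraries held 7, 2 and 4 reads at 0 h, 3, 0 and 0 at 12 h, and 3, 1 and 0 at 24 h. That is 20 reads in total. A count of 0 in a library allows up to 3 reads, or 0.0484 to 0.0639 CPM in these libraries (counting error only). The 0 h values of 0.034 to 0.113 CPM and the treated values of 0 to 0.064 CPM overlapped. A difference between the times was not tested at these low counts. The gene lies at chr2:221418027-221574202 on the minus strand.

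Of the B-class receptors, EPHB3, known for its role in positioning cells of the intestinal crypt, rose slightly. It lies at chr3:184561785-184582408 on the plus strand. It held 23.9, 24.9 and 22.8 CPM at 0 h, 25, 25.7 and 26.7 CPM at 12 h, and 25.8, 28.8 and 26.8 CPM at 24 h. The lowest treated library lay just above the highest one at 0 h. Its log2 fold change of 0.11 ± 0.054 (SE) at 12 h did not pass (edgeR adjusted p = 0.167). At 24 h it was 0.18 ± 0.054 and passed (edgeR adjusted p = 0.0109). That call was lost without 0 h replicate 3 (0.16, edgeR adjusted p = 0.0683) or 24 h replicate 2 (0.14, edgeR adjusted p = 0.106).

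EPHB4, the receptor of ephrin-B2 best known from the parting of arteries and veins, was the most abundant receptor of the 9 genes and did not pass. It lies at chr7:100802565-100827523 on the minus strand. It held 96.8, 101.1 and 96.2 CPM at 0 h, 94.5, 90.7 and 96.2 CPM at 12 h, and 98.3, 92.3 and 88.2 CPM at 24 h. The groups lay within a few CPM of each other and those at 0 h and 24 h overlapped. Its log2 fold change was -0.064 (95% interval -0.142 to 0.014) at 12 h and -0.078 (-0.156 to 0.00042) at 24 h, with edgeR adjusted p-values of 0.276 and 0.163. The 24 h difference was called without 24 h replicate 1 (-0.12, edgeR adjusted p = 0.0478) and after removal of trends on GC content and length (-0.11, 0.0122). SLC12A9 overlaps EPHB4 on the other strand, shares 1.07% of its exon bases and held 36% as many counts. The strand setting of the counting was not given in the sources used here, so reads of such pairs may be mixed.

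On the ligand side, EFNA1 rose and EFNA4 fell, both by less than 1.5-fold. Both lie on chromosome 1, EFNA1 at chr1:155127876-155134899 and EFNA4 at chr1:155063737-155069553, on the plus strand. EFNA1 encodes ephrin-A1, the main ligand of EPHA2. Its libraries held 40.1, 43.9 and 45 CPM at 0 h, 48.5, 46.1 and 46.7 CPM at 12 h, and 47.8, 46.8 and 46.7 CPM at 24 h. All treated libraries lay above those at 0 h, and 0 h replicate 1 was the lowest. The log2 fold change was 0.13 ± 0.044 (SE) at both times, with edgeR adjusted p-values of 0.0332 and 0.029. Without 0 h replicate 1 it was 0.087 at both times and did not pass (edgeR adjusted p = 0.219 and 0.198). The 12 h call was also lost without 12 h replicate 1 (0.11) or 3 (0.14), and the 24 h call without 24 h replicate 1 (0.12) or 2 (0.14).

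EFNA4 encodes ephrin-A4, another lipid-anchored ligand of EphA receptors. It held 20.5, 21.5 and 23.8 CPM at 0 h, 18.7, 20.1 and 19.1 CPM at 12 h, and 16.9, 17.1 and 17.3 CPM at 24 h. The libraries of the 3 times did not overlap, and each later time was lower. EFNA4 differed from 0 h by a log2 fold change of -0.19 ± 0.060 (SE) at 12 h (edgeR adjusted p = 0.0239) and -0.36 ± 0.060 at 24 h (edgeR adjusted p = 2.01e-05). From 12 h to 24 h it was -0.17 (95% interval -0.300 to -0.049), which did not pass (edgeR adjusted p = 0.0915). The 24 h call held under all 18 alternatives (-0.40 to -0.29). The 12 h call was lost without 0 h replicate 3 (-0.12, edgeR adjusted p = 0.212), 12 h replicate 1 (-0.16) or 12 h replicate 3 (-0.18). A readthrough gene, EFNA4-EFNA3, shares 15% of the EFNA4 exon bases and held 1 read. How reads in shared exons were counted was not given. That count therefore does not measure the readthrough, and EFNA4 reads there may have been lost.

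The ephrin-B ligands did not pass in any comparison. EFNB1, at chrX:68829021-68842160 on the plus strand, encodes ephrin-B1, which guides boundaries between groups of cells in the embryo. It held 13.5, 11.8 and 11.6 CPM at 0 h, 13.1, 12.9 and 12.9 CPM at 12 h, and 13.7, 12.8 and 13.3 CPM at 24 h. The groups overlapped, with 1 of the 0 h libraries among the treated ones. It differed by 0.076 on the log2 scale (95% interval -0.068 to 0.22, edgeR adjusted p = 0.527) at 12 h and 0.10 (-0.041 to 0.25, edgeR adjusted p = 0.346) at 24 h.

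EFNB2, at chr13:106489745-106535662 on the minus strand, encodes ephrin-B2, the ligand of EPHB4. It held 43.7, 42.9 and 40.9 CPM at 0 h, 41.1, 40.1 and 40.4 CPM at 12 h, and 41.1, 42.3 and 43.5 CPM at 24 h, with overlap between all groups. The log2 fold change was -0.070 (95% interval -0.157 to 0.018, edgeR adjusted p = 0.296) at 12 h and -0.0064 (-0.094 to 0.081, edgeR adjusted p = 0.942) at 24 h. A noncoding RNA on the other strand shares 36.4% of its exon bases, and held 0.79% as many counts. The strand setting was not given, so that count does not measure the noncoding RNA, and EFNB2 reads there may have been lost.

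None of the 8 genes passed between 12 h and 24 h by edgeR or DESeq2, and 1 (EFNA4) had an unadjusted edgeR p below 0.05. Of all tested genes, 6.08% were called in that comparison (3.03% higher and 3.05% lower), and 0.452% were also past 1.5-fold. The median log2 fold change of the 8 genes was 0.014, beside 0.0011 for all tested genes.

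**Figure D2:**
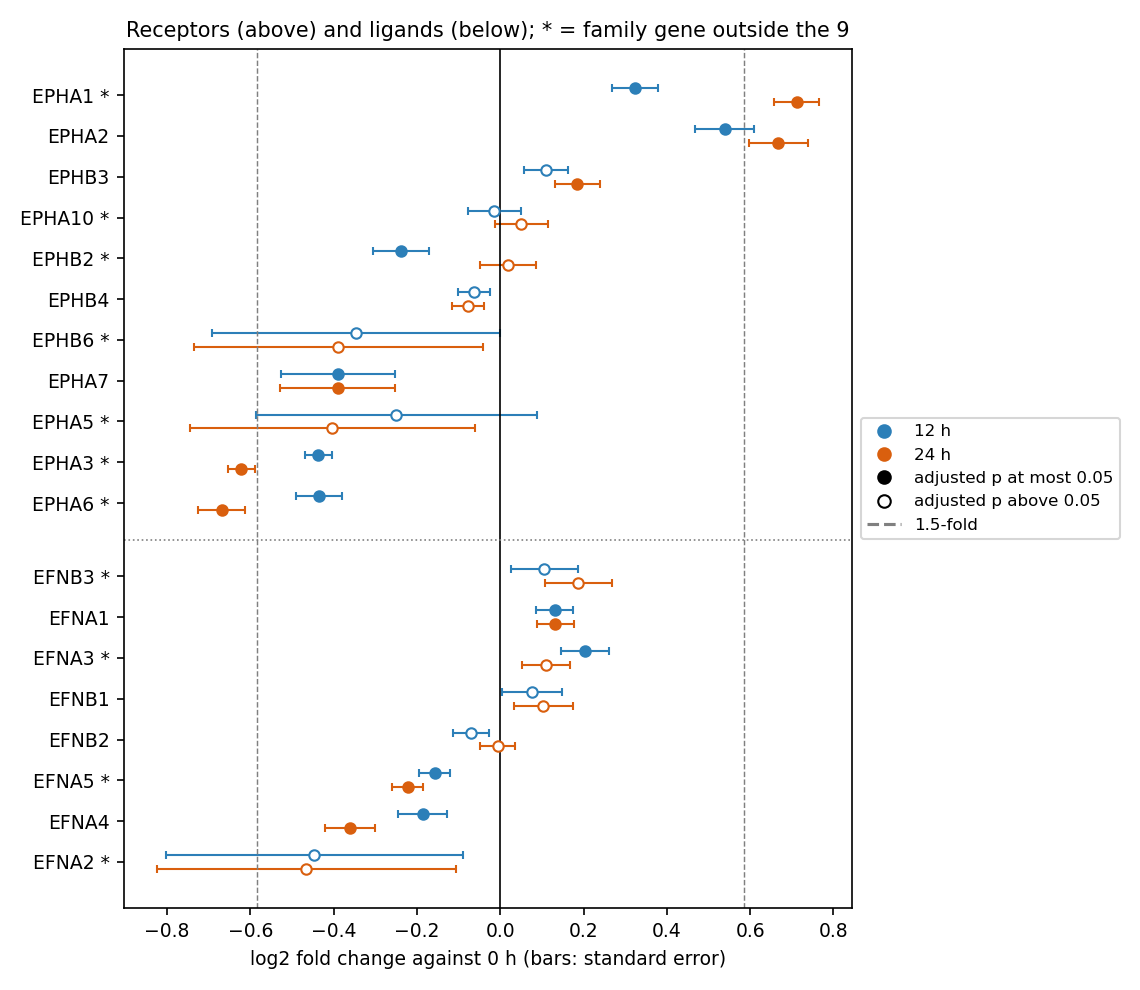
Log2 fold change against 0 h (x axis, bars are the SE of the fit) of the 11 tested Eph receptors and 8 tested ephrins, at 12 h (blue) and 24 h (orange), with filled points for an adjusted p of at most 0.05 and dashed lines at 1.5-fold. Among receptors the values at 24 h ran from -0.67 (EPHA6) to 0.71 (EPHA1), and among ligands the called values from -0.36 (EFNA4) to 0.13 (EFNA1).

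The receptor and ligand sides were compared as levels per length, in CPM per kb of the MANE Select transcript of each gene. At 0 h EFNA1 stood highest with 27.7 CPM per kb, followed by EPHB4 with 22.5, EFNA4 with 17.5, EFNB2 with 8.51, EPHB3 with 5.65, EFNB1 with 3.73, EPHA2 with 2.5 and EPHA7 with 0.557 CPM per kb. No neighbours in this order overlapped between their 3 libraries at 0 h or 12 h. At 24 h the order was the same, but EPHA2 had come up to 3.96 ± 0.074 (SD, n = 3) CPM per kb and overlapped EFNB1 at 4.02 ± 0.146 (SD, n = 3) CPM per kb. EFNA4 had come down to 13.6 CPM per kb.

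**Figure D3:**
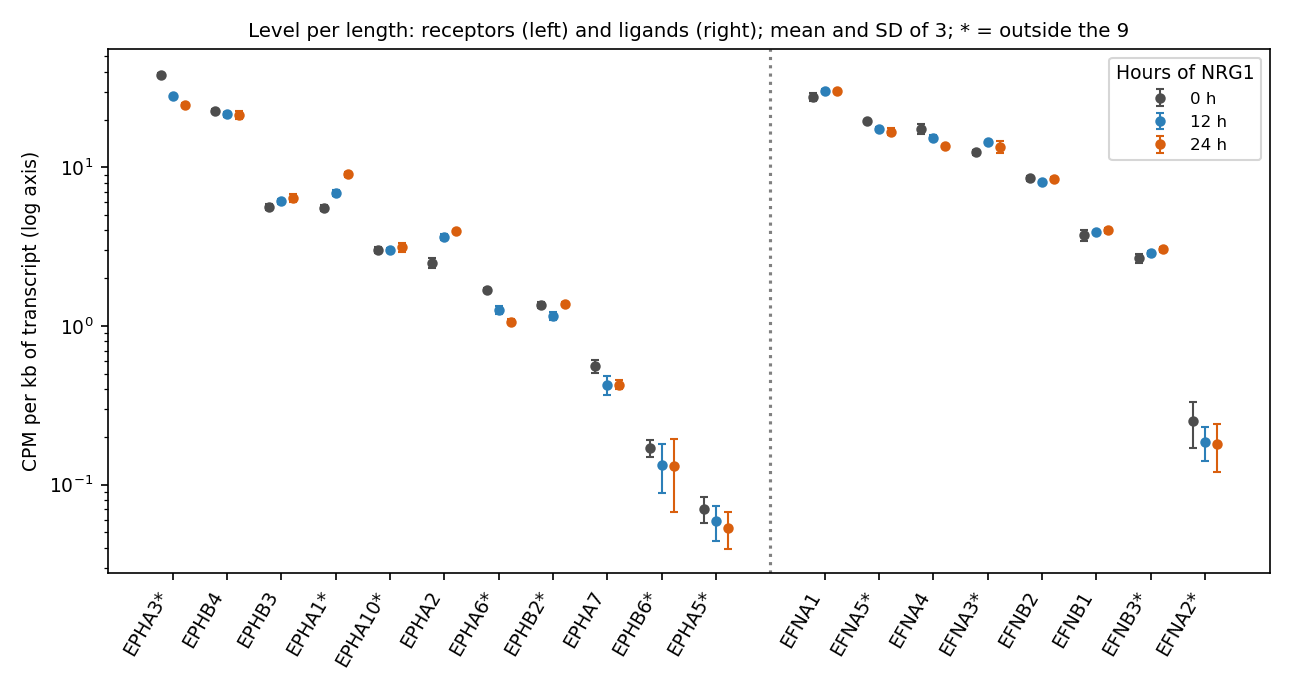
Level per length (y axis, CPM per kb of transcript, log axis) of the tested receptors, left of the dotted line, and ligands, right of it, at 0, 12 and 24 h of NRG1, as mean and SD of 3 libraries. EPHA3 led at 0 h with 38.2 CPM per kb and came down to 24.8 at 24 h, below EFNA1 at 30.4.

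Ligands made up 64.8% ± 1.33 (SD, n = 3) of the summed level per length of the 9 genes at 0 h, 64.6% ± 0.736 at 12 h and 63.7% ± 0.817 at 24 h. The libraries ran from 63.9% to 66.3% at 0 h and from 63.2% to 64.7% at 24 h, so the times overlapped. Summed receptor levels of these genes were 31.2, 31.7 and 32.2 CPM per kb at 0, 12 and 24 h, and summed ligand levels 57.5, 57.8 and 56.5 CPM per kb. Without division by length the share was 46.9%, 46.7% and 46.4% of CPM at the 3 times, so that receptors were then the larger side. Among the 5 listed receptors the A class took a larger share of the level per length with treatment. It held 10.4%, 9.78% and 9.28% at 0 h, 12.3%, 13.2% and 12.9% at 12 h, and 13.3%, 13.7% and 14.1% at 24 h, most of it EPHA2. Groups at each time did not overlap in that share. Over all 11 tested receptors of the family the A-class share went the other way, from 63.4% ± 1.02 (SD, n = 3) at 0 h to 60% ± 0.617 at 12 h and 59.2% ± 1.05 at 24 h, with EPHA3 among them. The A class held 78.6% of the ligand level at 0 h and 77.9% at 24 h. Median log2 fold changes at 24 h were 0.054 for the 4 tested receptors and 0.049 for the 4 ligands. No p is given for these sums, since the genes were chosen by name as a set.

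**Figure D4:**
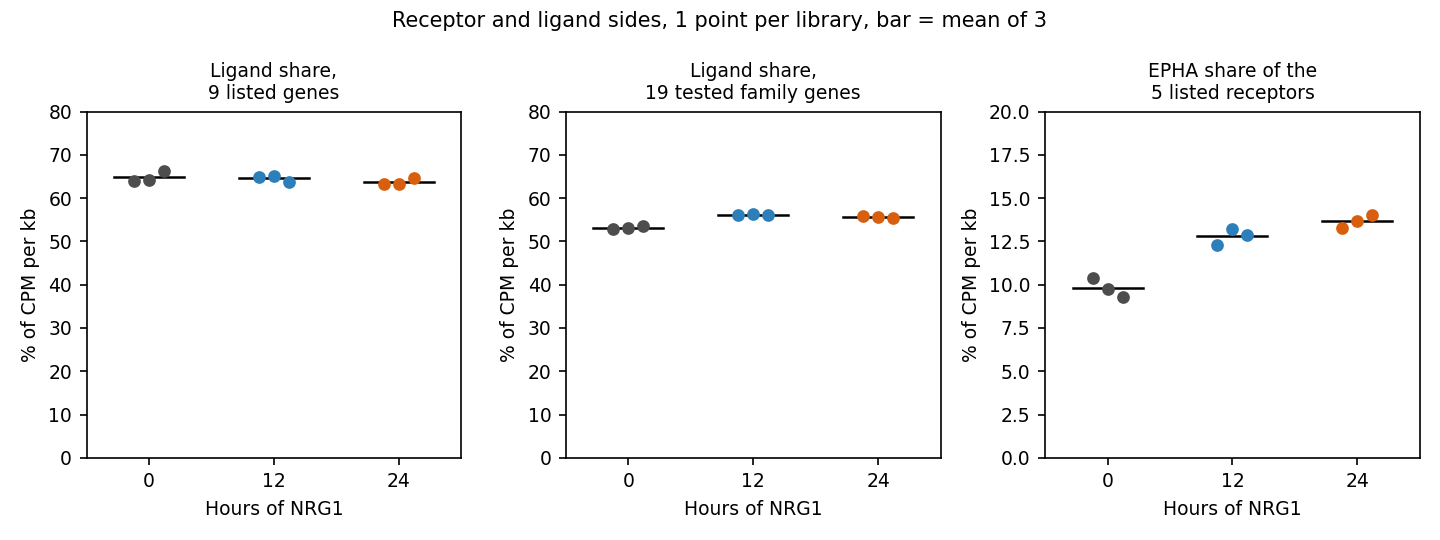
Share of the summed level per length (y axes, % of CPM per kb, from 0) by library against hours of NRG1 (x axis), for ligands among the 9 genes, ligands among the 19 tested family genes, and EphA receptors among the 5 listed receptors, with a bar at the mean of 3. The first share stayed between 63.2% and 66.3% in all libraries, and the third went from a mean of 9.81% at 0 h to 13.7% at 24 h, while the same share over all 11 tested receptors, not drawn, went from 63.4% to 59.2%.

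The other 13 genes of the family were measured in the same fit, and 11 of them were tested. EPHA3, an A-class receptor, was the most abundant receptor and fell. It held 214.7, 213.8 and 225.2 CPM at 0 h, 162, 160.3 and 160.6 CPM at 12 h, and 138.7, 140.2 and 146.1 CPM at 24 h, with no overlap between times. Its log2 fold change was -0.44 ± 0.033 (SE) at 12 h and -0.62 ± 0.033 at 24 h, and both calls held under all 18 alternatives. EPHA6, another A-class receptor, fell by 0.43 at 12 h and by 0.67 at 24 h on the log2 scale, from a mean of 27.6 CPM to 17.3 CPM at 24 h. With GC content and length offsets its 12 h value was -0.32, and still called. Another gene on the same strand shares 11% of the EPHA6 exon bases, where reads may have been lost. EPHA1, an epithelial EphA receptor, rose by 0.32 at 12 h and by 0.71 at 24 h on the log2 scale, from a mean of 18.3 CPM to 22.8 and 29.9 CPM. ZYX overlaps EPHA1 on the other strand, held 315% as many counts and shares 1.75% of its exon bases.

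Among the remaining receptors, EPHB2, a B-class receptor, was lower at 12 h (-0.24, edgeR adjusted p = 0.00997) and not at 24 h (0.018, edgeR adjusted p = 0.893). The 12 h call was lost without 12 h replicate 2 (-0.19) and with GC content and length offsets (-0.17, edgeR adjusted p = 0.0578). On the ligand side EFNA5 fell by 0.16 at 12 h and by 0.22 at 24 h on the log2 scale, from 104.8 CPM to 94 and 89.9 CPM. EFNA3 rose by 0.20 at 12 h (edgeR adjusted p = 0.00893), a call lost without 0 h replicate 3 (0.18). At 24 h it had 0.11 (edgeR adjusted p = 0.193), and was called there without 24 h replicate 3 (0.18). The readthrough gene shares 43.9% of the exon bases of EFNA3, where reads may likewise have been lost. EPHA10, EPHA5, EPHB6, EFNA2 and EFNB3 did not pass, and EPHA8 and EPHB1 were untested, with 33 and 8 reads in total. Across the 19 tested genes of the family, 4 were higher and 6 lower at 12 h, and 4 higher and 5 lower at 24 h, 4 of them past 1.5-fold. Those are 52.6% and 47.4% of the tested family, beside 18.7% and 21.1% of all tested genes called and 3.31% past both thresholds at 24 h. With EPHA3 and the others included, the summed receptor level went from 81.2 ± 0.893 (SD, n = 3) CPM per kb at 0 h to 72.4 ± 0.929 at 12 h and 71.8 ± 0.640 at 24 h. The ligand share of the whole family was 53.2% ± 0.410, 56.1% ± 0.142 and 55.6% ± 0.282 at the 3 times, and both treated groups lay above the 0 h libraries.

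Signalling partners were taken as a list of 56 genes named for their roles beside Eph receptors and ephrins, of which 53 were tested. ARHGEF15, TIAM1 and PTPRO had too few reads. At 12 h, 3 were higher and 7 lower. At 24 h, 7 were higher and 8 lower, and between 12 h and 24 h 5 were higher and 2 lower. Those counts are 18.9%, 28.3% and 13.2% of the list, beside 18.7%, 21.1% and 6.08% of all tested genes. Median log2 fold changes of the list were 0.012, 0.022 and 0.0047. Without 12 h replicate 2 the 12 h count fell from 10 to 5, and the count between 12 h and 24 h fell from 7 to 2 without 12 h replicate 2 or 24 h replicate 3, and to 4 without 12 h replicate 1 or 3 or 24 h replicate 1.

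The role listed as exchange factors and adaptors of forward signalling had 21 tested genes. It also held RASA1, SIPA1L1, CHN1 and INPPL1, which are neither exchange factors nor plain adaptors and were not called in any comparison. By edgeR, none of the 21 were higher and 4 were lower at 12 h, and none higher and 6 lower at 24 h. Of all tested genes, 10.6% were higher and 8.16% lower at 12 h, and 11.6% higher and 9.48% lower at 24 h. DESeq2 also called none of them higher, and the number higher at an unadjusted edgeR p below 0.05 was 0 at 12 h and 1 at 24 h. GRB10, an adaptor that binds activated receptor kinases, had the lowest value of the called genes at 12 h. It held 395.1, 390.9 and 405.3 CPM at 0 h, 255.7, 251.7 and 268.3 CPM at 12 h, and 271.6, 271.5 and 276.2 CPM at 24 h. All treated libraries were far below those at 0 h. Its log2 fold change was -0.62 ± 0.032 (SE) at 12 h (edgeR adjusted p = 2.46e-17), past 1.5-fold, and -0.54 ± 0.032 at 24 h (6.94e-16). ITSN1, an exchange factor for CDC42, fell from a mean of 45.7 CPM to 37.6 and 34.1 CPM, by 0.28 at 12 h and by 0.42 at 24 h on the log2 scale. With GC content and length offsets the ITSN1 value at 12 h was -0.17, and still called. KALRN, an exchange factor of RAC1 and RHOA, fell by 0.64 ± 0.140 at 24 h (edgeR adjusted p = 0.000788) and was the only gene of the list past both thresholds there. At 12 h it fell by 0.54, and without 12 h replicate 2 the value was -0.36 (edgeR adjusted p = 0.0873). NCK2, an adaptor, fell by 0.18 at 12 h and by 0.16 at 24 h, and NGEF (ephexin), the exchange factor bound to EphA receptors, by 0.23 at 24 h. NCK2 was not called at 12 h without 12 h replicate 1 (-0.14), nor at 24 h without 0 h replicate 1 (-0.14) or 24 h replicate 2 (-0.11). NGEF was not called without 0 h replicate 2 (-0.20) or 3 (-0.21), or 24 h replicate 1 (-0.20) or 3 (-0.19).

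All rises of the list lay in the other roles. CBLB, a ubiquitin ligase that sends receptor kinases to breakdown, held 33.6, 32.9 and 36.9 CPM at 0 h, 39.7, 43 and 41.9 CPM at 12 h, and 44.5, 44.6 and 47.9 CPM at 24 h, with no overlap between times. Its log2 fold change was 0.27 ± 0.048 (SE) at 12 h (edgeR adjusted p = 7.16e-05) and 0.41 ± 0.048 at 24 h (3.23e-08). Of 5 kinases, 2 were higher at 24 h, beside 11.6% of all tested genes. FYN, a Src family kinase that acts in ephrin signalling, rose by 0.42 ± 0.097 (edgeR adjusted p = 0.00118), from 5.74 to 7.09 CPM at 0 h to 7.68 to 9.65 CPM at 24 h. PAK1, an effector of RAC1, rose by 0.24 at 12 h (edgeR adjusted p = 0.0238), a call lost without 0 h replicate 2 (0.16) or 12 h replicate 2 (0.23) or 3 (0.23). DVL2, a Dishevelled protein that can bind ephrin-B, rose by 0.16 at 12 h (edgeR adjusted p = 0.00202). At 24 h neither PAK1 (0.15, edgeR adjusted p = 0.17) nor DVL2 (0.093, edgeR adjusted p = 0.0734) was called.

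Some partners differed between the times. PTPN13, a phosphatase with PDZ domains, held 112.6, 110.4 and 113.3 CPM at 0 h, 102.6, 98.1 and 105.8 CPM at 12 h, and 123.8, 124.8 and 134.2 CPM at 24 h. It was lower at 12 h (-0.13 ± 0.037 SE, edgeR adjusted p = 0.00773) and higher at 24 h (0.19 ± 0.037, edgeR adjusted p = 0.000183). The 12 h call was lost without 12 h replicate 2 (-0.10). AFDN (afadin), a junction protein with a PDZ domain, was lower at 12 h (-0.14, edgeR adjusted p = 0.0292), and had 0.034 at 24 h (0.682). That 12 h call was lost without 0 h replicate 1 (-0.095) or 3 (-0.14), or 12 h replicate 1 (-0.15) or 2 (-0.10), and by DESeq2 (-0.14, adjusted p = 0.0509). SDCBP (syntenin), a PDZ protein that binds ephrin-B tails, was lower at 24 h (-0.11, edgeR adjusted p = 0.0316), as was ELMO2 (-0.13, edgeR adjusted p = 0.041), a partner of exchange factors. Without 0 h replicate 3 these were -0.070 for SDCBP (edgeR adjusted p = 0.239) and -0.095 for ELMO2 (edgeR adjusted p = 0.224). SDCBP was also not called without 0 h replicate 2 (-0.10), 12 h replicate 1 (-0.10), 24 h replicate 2 (-0.089) or 24 h replicate 3 (-0.10), and ELMO2 without any 1 of the 12 h or 24 h libraries (-0.14 to -0.11). With only the 6 libraries compared neither was called (edgeR adjusted p = 0.0568 for SDCBP and 0.0696 for ELMO2), nor was ELMO2 with all genes (0.0671) or by DESeq2 (0.0555).

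**Figure D5:**
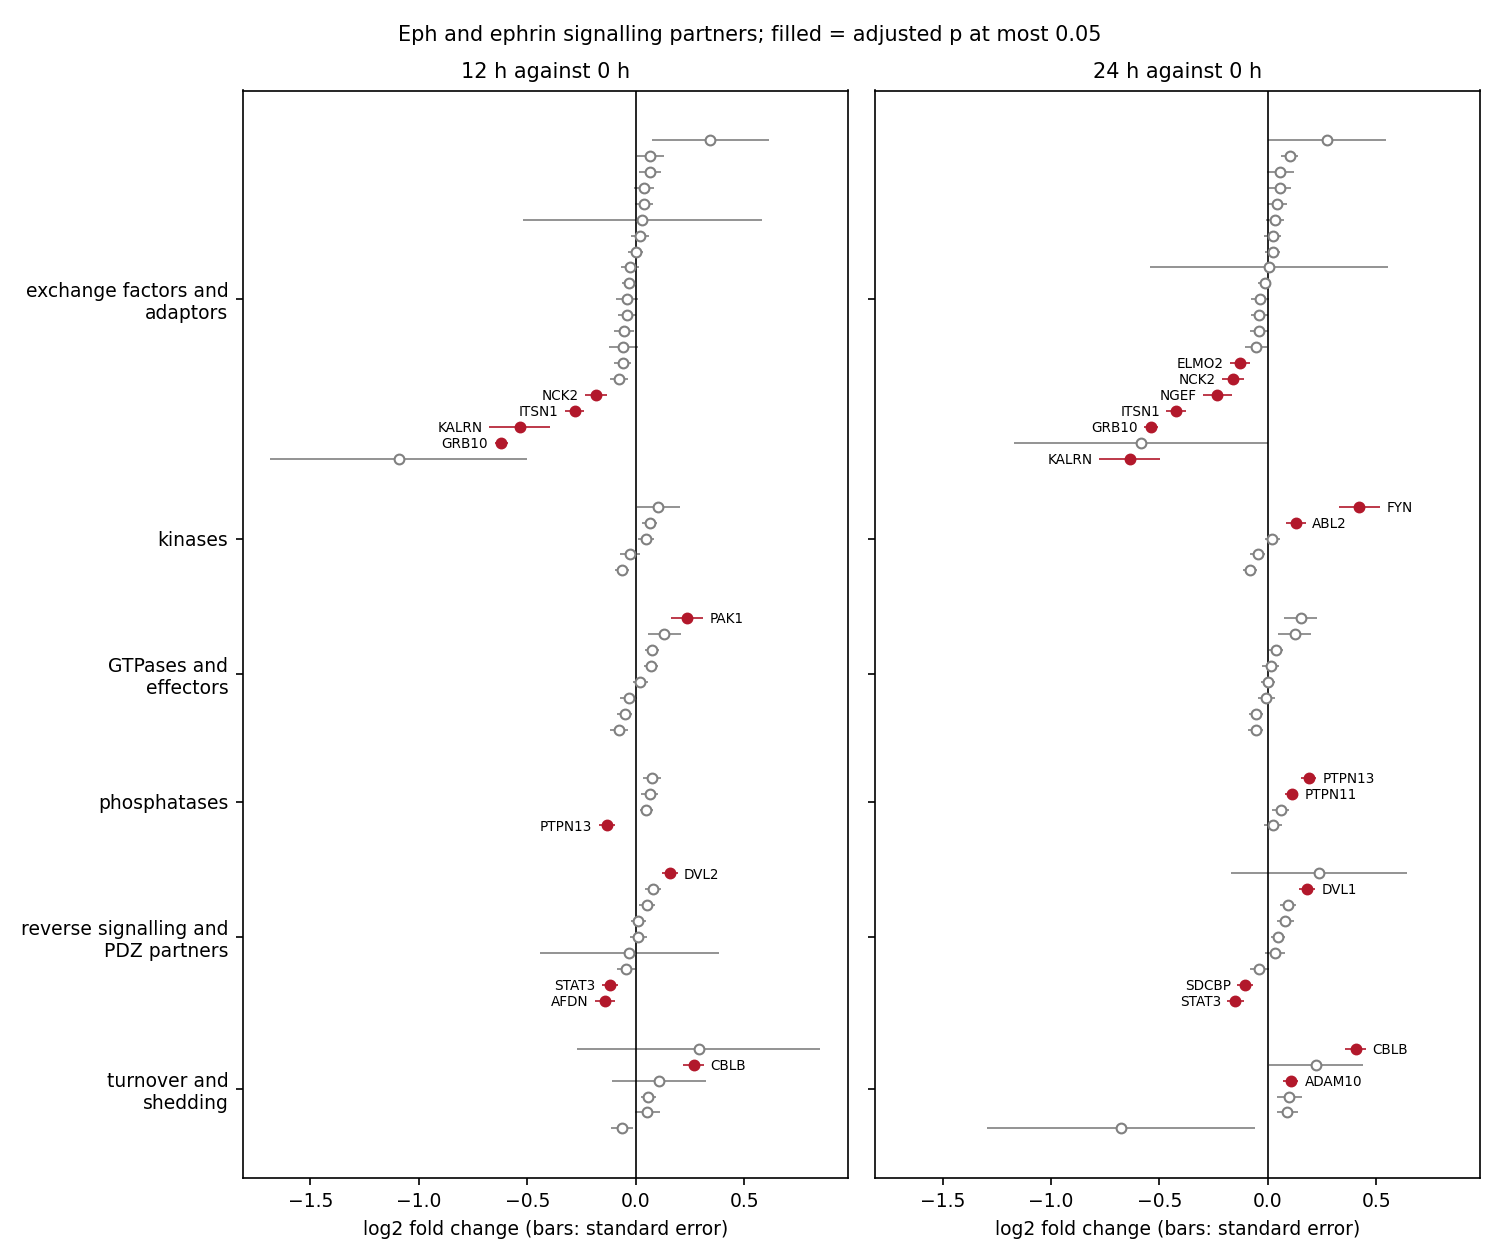
Log2 fold change against 0 h (x axis, bars are the SE of the fit) of the 53 tested signalling partners, grouped by role (y axis), at 12 h (left) and 24 h (right), with filled points and names for an adjusted p of at most 0.05. Among the 21 genes listed as exchange factors and adaptors all filled points lie below 0, down to -0.62 for GRB10 at 12 h and -0.64 for KALRN at 24 h. CBLB lies above 0 at both times.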

How the data were processed

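LNCaP cells were plated in triplicate, starved and treated, and TruSeq mRNA libraries were sequenced as read pairs of 150 bases. Per the study's methods and the submitters' processing notes, adapters were trimmed with Cutadapt 4.5, reads were aligned to GRCh38.p13 with STAR 2.7.11a and counted per gene with featureCounts 2.0.2. The strand setting and the treatment of reads with several matches were not given in the sources used here. The authors deposited raw read counts in 1 column per library, and 14 empty columns were not used. The methods say that 1 LNCaP library at time 0 was left out for quality, without naming its treatment. The study's figure legend gives n = 3 for LNCaP cells in the NRG1 time course, and all 3 deposited libraries at 0 h were used here.

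Groups and replicate numbers came from the sample titles. Counts of all 9 libraries were fitted with edgeR 4.0.16 in R 4.3.3 (filterByExpr by group, TMM, robust quasi-likelihood, no covariate). Benjamini-Hochberg adjustment ran over 19250 tested genes. DESeq2 1.42.0, which the authors used (1.30.1) with the same thresholds of 0.05 and 1.5-fold, was an alternative. The labels call replicates biological but name no separate cultures beyond the wells, so p-values measure the spread between these libraries. Counts of replicates differed by more than sampling noise (chi-square per degree of freedom 3.12 to 9.04), with a biological coefficient of variation (common dispersion) of 4.07%. The depth of each library gives counting precision only, since no molecular identifiers were used. The edgeR and DESeq2 steps were tested on simulated data.

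The table holds no gene length, which had been assumed in the design, so levels per length use the MANE Select transcript of GENCODE v44 on GRCh38. Gene copies were searched by BLAST 2.17.0 (at least 95% identity over 150 bases), and 2 of the 9 genes had a match (EFNA4 and EFNB2, both to a gene at the same locus). The members and lists were chosen with earlier results of these data known. Of the partner list, the text names genes past both thresholds and the 3 largest rises and falls per comparison whose average log2 CPM was 2 or more. Genes like EPHA2 are the 5 with the highest Pearson r over the libraries. Alternatives were DESeq2, other size factors, filters and libraries, a replicate block, each library left out in turn, and, chosen after seeing the data, GC content and length offsets, thinning to the smallest total, another length and the ligand share without EFNA4. Of the cell markers, 1 luminal marker, and the sum that includes it, is not reported here.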

Additional observations from a re-analysis of the deposited data

Results flagged for a closer look

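The effects at 12 h and 24 h differed by the direct edgeR test of 24 h against 12 h for the following genes, with adjusted p-values over all tested genes. Among Eph receptors, EPHA1 was higher at 24 h than at 12 h (0.39 on the log2 scale, edgeR adjusted p = 4.83e-06), with 28.8 to 30.7 CPM against 22 to 23.9 CPM. EPHA3 was lower (-0.18), with 138.7 to 146.1 CPM against 160.3 to 162 CPM. Both held under all 18 alternatives. EPHA6 was lower (-0.23, edgeR adjusted p = 0.00971), and was not called without 12 h replicate 1 (-0.19) or 24 h replicate 3 (-0.21). EPHB2 was higher (0.26, edgeR adjusted p = 0.0172), having been lower than 0 h at 12 h, and lost its call without replicate 2 (0.21) or 3 (0.26) at 12 h or replicate 3 (0.23) at 24 h, or with GC content and length offsets (0.19).

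Of the signalling partners, PTPN13 (0.32, edgeR adjusted p = 1.28e-07) and SDCBP (-0.18, edgeR adjusted p = 0.000874) held under all 18 alternatives. FYN was higher (0.32, edgeR adjusted p = 0.0426), a call lost with DESeq2 and without 12 h replicate 1, 2 or 3, or 24 h replicate 1 or 3 (0.25 to 0.34). AFDN was higher (0.18, edgeR adjusted p = 0.018), but not called without 12 h replicate 2 (0.14) or 24 h replicate 3 (0.13). ELMO2 was lower (-0.17, edgeR adjusted p = 0.0218), and lost that call without replicate 1 (-0.16) or 2 (-0.17) at 12 h, or replicate 2 (-0.18) or 3 (-0.15) at 24 h.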

How the results depend on the processing

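With a fold of at least 1.5 required as well, calls among the 9 genes were 0 at 12 h and 1 at 24 h, and those among partners 1, 1 and 0 in the 3 comparisons (DESeq2 also 0 in the last, where 18 partners had an unadjusted edgeR p below 0.05). The share of all tested genes at that unadjusted p was not counted. Leaving out 1 library at a time gave 1 to 4 calls among the 9 genes for the first 12 h, 2 to 5 for 24 h and 3 to 5 for any time. For partners it gave 5 to 10 calls for 12 h, 10 to 15 for 24 h and 2 to 9 between the treated times. The ligand share for 0, 12 and 24 h was 46.9%, 46.7% and 46.4% of CPM without division by length, 53.2%, 56.1% and 55.6% over the tested family, 68.2%, 67.3% and 66.2% with exon bases of all transcripts, and 56.1%, 57.2% and 57.1% without EFNA4. Some log2 values near 0 changed sign and were not called: EPHA7 from 12 h to 24 h was 0.012 without scaling, 4.911e-05 with at least 10 counts in every library, 0.0011 with the replicate block, 0.0019 after thinning and -0.062 to 0.12 with a library left out. EFNA1 in that comparison was -0.0033 with all genes and -0.013 to 0.024 with a library left out. The same fits gave -0.029 to 0.017 for EFNB2 and -0.013 to 0.043 for EPHB2 at 24 h against 0 h, and -0.055 to 0.023 for EPHB4 from 12 h to 24 h. The replicate block gave 4, 5 and 0 calls among the 9 genes and 10, 15 and 8 partners. Same-numbered libraries correlated by -0.122 to 0.147 in their deviations from the group means, so the numbers were not taken to pair them. The cause of these changes was not tested. Of the 8 tested genes EPHA7, near 3 CPM, had the widest intervals.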
